A study of Mus musculus with 4 samples.

Results

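The hypoxia-inducible factor (HIF) genes and the genes of their oxygen sensors were followed across 4 cell populations sorted on the way from endothelium to blood. They comprise 10 genes chosen by symbol: the alpha subunit genes Hif1a, Epas1 and Hif3a, the beta subunit genes Arnt and Arnt2, the prolyl hydroxylase genes Egln1, Egln2 and Egln3, the asparaginyl hydroxylase gene Hif1an and the ubiquitin ligase gene Vhl. On the array they are read by 30 of the 34958 probe sets that carry a single gene symbol, and they are 10 of 18194 genes. All cells came from the same mouse ES cell line (CCE parent), in which the fluorescent protein Venus was knocked into 1 allele of Runx1 behind the proximal promoter, so that every population is heterozygous for Runx1. They were sorted on day 6 of co-culture with OP9 stromal cells. Population 1 was Runx1-Venus negative, VE-cadherin positive and Flk1 positive, population 2 was Runx1-Venus and VE-cadherin positive but CD41 negative, population 3 was positive for Runx1-Venus, VE-cadherin and CD41, and population 4 was positive for Runx1-Venus and CD41 but VE-cadherin negative. RNA of each population was hybridised to 1 Affymetrix Mouse Genome array. Each population is thus analysed here without a replicate, so no difference below has a test or an error.

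HIF is a heterodimer of an oxygen-regulated alpha subunit and a constitutive beta subunit. When oxygen is available, the EGLN enzymes hydroxylate prolines of the alpha subunit, which is then recognised by VHL and degraded, while the asparaginyl hydroxylase HIF1AN blocks the binding of coactivators. Most of this control acts on the protein, which arrays do not measure. Epas1, which encodes the alpha subunit HIF2A, is known for its expression in vascular endothelium, and HIF activity has roles in blood vessel growth, red cell production and the early development of blood.

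The values are linear intensities, 1 signal for each probe set. Each gene is read by its brightest probe set (the highest mean log2 signal), and signals of different genes are not compared with each other. Ratios were computed with signals below 100 raised to 100, and a fold of at least 2 is called higher or lower. Over the 9468 genes that exceeded 100 in 1 population or more, the median log2 ratio was 0.36 for population 4 over 1, 0.00 for population 2 over 1, 0.22 for population 3 over 2 and 0.06 for population 4 over 3, and a member's ratio is to be read against these shifts. As a measure of technical disagreement within the arrays, pairs of probe sets of the same gene differed by a median of 0.22 in the log2 ratio of population 4 over 1 (4495 pairs, both above 100), and 10% of them by more than 0.65. This is not an error between samples. Of the sort markers, Runx1 and Cdh5 followed the gates, with Runx1 at 55.3, 358, 1297 and 2440.2 across populations 1 to 4, and Cdh5 (VE-cadherin) at 40.9 in population 4, against 3946 to 5683 in the other populations. Itga2b (CD41) had 667, 1135, 2418 and 1610 across populations 1 to 4, so that its transcript was well above 100 in population 2, sorted as CD41 negative, and in population 1, which was not gated on CD41.

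Of the 10 genes, 9 had a signal above 100 in all 4 populations. Arnt2 was the exception, with no probe set above 100 anywhere. Of the 30 probe sets, 12 lay above 100 in every population and 15 in none. In the plot of signals by population, Epas1 has the widest range of the 9 measured genes by their brightest probe sets, 60.3-fold, followed by Hif3a with 3.60-fold.

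**Figure D1:**
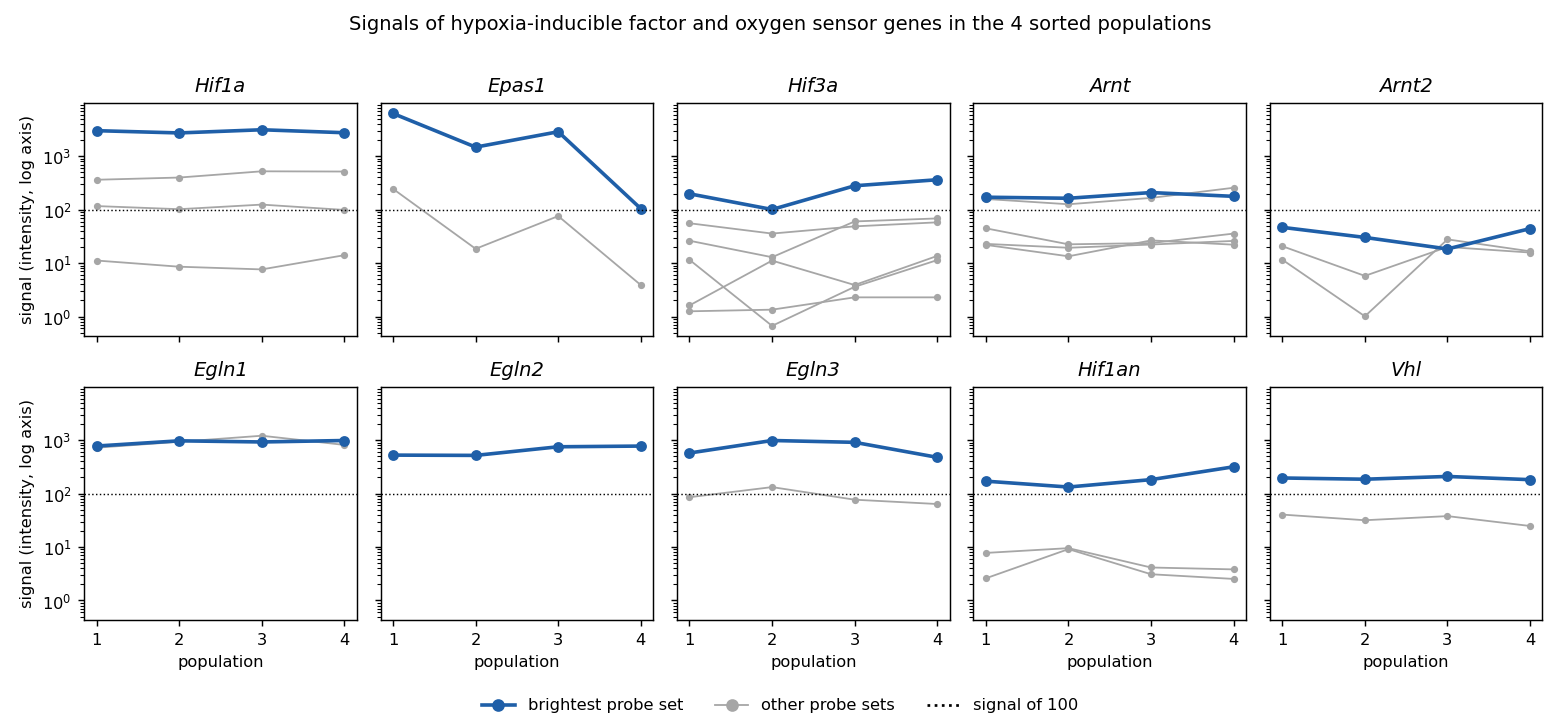
Signals (intensity, log axis) of the 10 genes in populations 1 to 4, 1 array each, so no error is drawn. Blue lines are the brightest probe set of each gene and grey lines the others, and the dotted line marks a signal of 100. Epas1 reaches 104 in population 4, against 6299 in population 1, while Hif1a stays between 2726 and 3126.

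The signals of Epas1 were 6299, 1479, 2870 and 104 in populations 1, 2, 3 and 4. It was thus highest in the Runx1-negative endothelial population, lower in population 2, higher again in population 3 and close to the floor of 100 in population 4. In population 4 it was 60.3-fold lower than in population 1. Against population 3, population 4 was 27.5-fold lower. Population 2 was 4.26-fold lower than population 1, and population 3 was 1.94-fold higher than population 2, just short of the limit of 2 (1.57-fold after centring each array on its median). The second probe set of Epas1 gave 245, 18.5, 75.9 and 3.89, above 100 in population 1 alone, so that it gives no usable order of the other populations. Averaged over both probe sets, the log2 ratio of population 4 over 1 was -3.63 in place of -5.91 from the brighter one, and it understates the difference because the mean lay below 100 in population 4. In a bulk sample, fewer cells expressing a gene and less RNA of it per cell cannot be told apart.

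On the deposited scale, the summed signal of endothelial markers moved in the same direction as Epas1 at each step, but single markers did not all do so. Over 10 markers (Pecam1, Cldn5, Emcn, Esam, Tie1, Tek, Egfl7, Sox18, Robo4 and Ramp2), the summed signal was 22111, 14376, 17290 and 1995 in populations 1 to 4. All 10 were above 100 in populations 1 to 3 and 4 in population 4, where Emcn had the lowest signal, 7.28. Between populations 4 and 1, 9 of the 10 were at least 2-fold lower, and Egfl7 was 1.79-fold lower. On the deposited scale Tek alone was higher in population 2 than in population 1 (3169 against 2446). On the same scale Ramp2 alone was lower in population 3 than in population 2 (2346 against 2769). After centring, the log2 ratios of Egfl7, Esam and Tek for this step turned negative too (-0.04, -0.10 and -0.20). Those of the other markers stayed positive, so the rise of the sum at this step depends on the scale between arrays. Of stromal markers, the kind of the OP9 cells, 5 of 10 were above 100 in population 1 and 4 in each of the others, with summed signals of 3391, 2140, 1903 and 1535, while Dcn and Thy1 stayed below 20 in all populations. The part of these cell types in the Epas1 signal was not tested. Of the pluripotency markers, Klf2, which endothelium also expresses, was the 1 of 8 above 100.

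Hif1a, the alpha subunit gene expressed in most cell types, had signals of 3005, 2726, 3126 and 2751 in populations 1 to 4. The highest and the lowest differed by 1.15-fold, so that the order of the populations cannot be told from these arrays. A second probe set had 363, 399, 522 and 517, with population 4 1.43-fold above population 1, where the brightest one had 0.92-fold. Another had 98.9 in population 4 and between 102 and 124 in populations 1 to 3, and the last lay below 15 throughout. Relative to the median of all genes, the brightest probe set of Hif1a was lower in population 4, with a log2 ratio over population 1 of -0.13 on the deposited scale and -0.42 after every array was centred on its median. The mean over probe sets turned the deposited ratio to 0.12.

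Since both genes are read from the same arrays, the difference between their changes, taken from signals not raised to the floor, is free of the scale between arrays. The log2 ratio of Epas1 minus that of Hif1a was -5.79 for population 4 over 1, -1.95 for population 2 over 1, 0.76 for population 3 over 2 and -4.60 for population 4 over 3. Among the steps between neighbouring populations, these changes were thus most unequal between populations 4 and 3, which differ in VE-cadherin. For Hif3a minus Hif1a the same differences were -0.83 for population 2 over 1, 1.28 for population 3 over 2 and 0.56 for population 4 over 3, with the widest between populations 3 and 2.

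Hif3a, whose splice forms include inhibitors of the other alpha subunits, had signals of 198, 101, 280 and 363 in populations 1 to 4. On the deposited scale it was lowest in population 2 and highest in population 4. Population 3 was 2.78-fold higher than population 2 (2.24-fold after centring). With signals raised to 200 the log2 ratio was 0.49 in place of 1.47, below the limit, since population 2 lay just above 100. Population 4 was 1.83-fold higher than population 1 (1.49-fold after centring), and 72.8% of genes had a lower ratio there. The other 5 probe sets of Hif3a stayed below 100, between 0.67 and 68.6, and give no usable order.

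Arnt encodes the beta subunit with which all alpha subunits pair. Its signals were 171, 163, 209 and 178 in populations 1 to 4, a range of 1.28-fold. A second probe set above 100, of a type that can match several transcripts, had 159, 126, 166 and 257, and there population 4 was 1.62-fold above population 1, against 1.04-fold by the brightest one, whose log2 ratio of 0.05 turned to -0.24 after centring. Both placed population 2 lowest on the deposited scale. The other 3 probe sets lay below 45. Arnt2, the beta subunit gene known mainly from neurons, had its highest signal, 46.7, in population 1, and its 3 probe sets lay between 1.01 and 46.7, so that no change is given for it.

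The sensors showed smaller differences than Epas1. Egln1 encodes PHD2, the main prolyl hydroxylase of HIF in most tissues, and had signals of 776, 971, 924 and 984 in populations 1 to 4. Its second probe set gave 721, 931, 1209 and 813. Both were lowest in population 1 on the deposited scale (for the brighter one, the log2 ratio of population 3 over 1 turned to -0.08 after centring) and placed population 2 above it, by 1.25-fold and 1.29-fold, while the order of populations 3 and 4 differed between them. Egln2, encoding PHD1, had 524, 518, 751 and 774 by its single probe set. It was 1.45-fold higher in population 3 than in population 2, and 1.48-fold higher in population 4 than in population 1. After centring these ratios were 1.17-fold and 1.20-fold.

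Egln3, encoding PHD3, had its maximum in population 2, as Egln1 also had by its brightest probe set after centring. The signals of Egln3 were 574, 984, 910 and 477 in populations 1 to 4. Population 2 was 1.71-fold higher than population 1, where 93.9% of genes had a lower ratio, and population 4 was 1.91-fold lower than population 3. Both differences fell short of 2-fold. The second probe set, with 85.6, 132, 76.9 and 63.8, was above 100 in population 2 alone and gives no usable order of the others. In population 2 against population 1, Egln3 was thus higher where Epas1 was lower. The log2 ratio of Egln3 minus that of Egln1 was -0.61 for population 4 over 1 and 0.45 for population 2 over 1, whatever the scale between arrays.

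Hif1an had signals of 171, 133, 182 and 317 in populations 1 to 4, so that population 4 was 1.86-fold higher than population 1 (1.51-fold after centring). It was the member with the largest positive ratio there, ahead of Hif3a, although 73.5% of genes had a lower ratio than Hif1an. Its other 2 probe sets were between 2.53 and 9.53. Vhl, the substrate receptor of the ubiquitin ligase, had 196, 186, 209 and 182, a range of 1.15-fold on the deposited scale. After centring, its log2 ratio of population 4 over 1 was -0.40 in place of -0.10. The second probe set of Vhl lay below 100 throughout, at 24.8 to 40.5.

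Set side by side, 1 of the 9 measured members differed by 2-fold or more in each comparison of populations. In population 4 against population 1, Epas1 was the 1 of 9 measured members that was lower, where 12.9% of all genes were, and 0 members were higher, where 22.4% of all genes were. Between populations 2 and 1, Epas1 was again the 1 member that was lower (4.19% of all genes) and 0 were higher (2.92%). Between populations 3 and 2, Hif3a was the 1 member that was higher (3.11%) and 0 were lower (0.253%). Between populations 4 and 3, Epas1 was the 1 member that was lower (12.2%) and 0 were higher (7.94%). Over the 9 members the median log2 ratio of population 4 over 1 was 0.05, beside 0.36 over all genes, and 6 of them lay below the median of all genes. With arrays centred on their medians the members' median was -0.24 and that of all genes 0.10, and the same members were called. Of all genes, centring left 14.4% higher and 16% lower in population 4 than in population 1, 2.94% higher and 4.66% lower in population 2 than in population 1, 1.21% higher and 0.637% lower in population 3 than in population 2, and 8.22% higher and 11.6% lower in population 4 than in population 3. Between populations 3 and 1, Epas1 was the 1 member that was lower (log2 ratio -1.13), where 2.3% of all genes were (4.16% after centring), and 0 were higher, where 5.32% were (2.32% after centring).

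**Figure D2:**
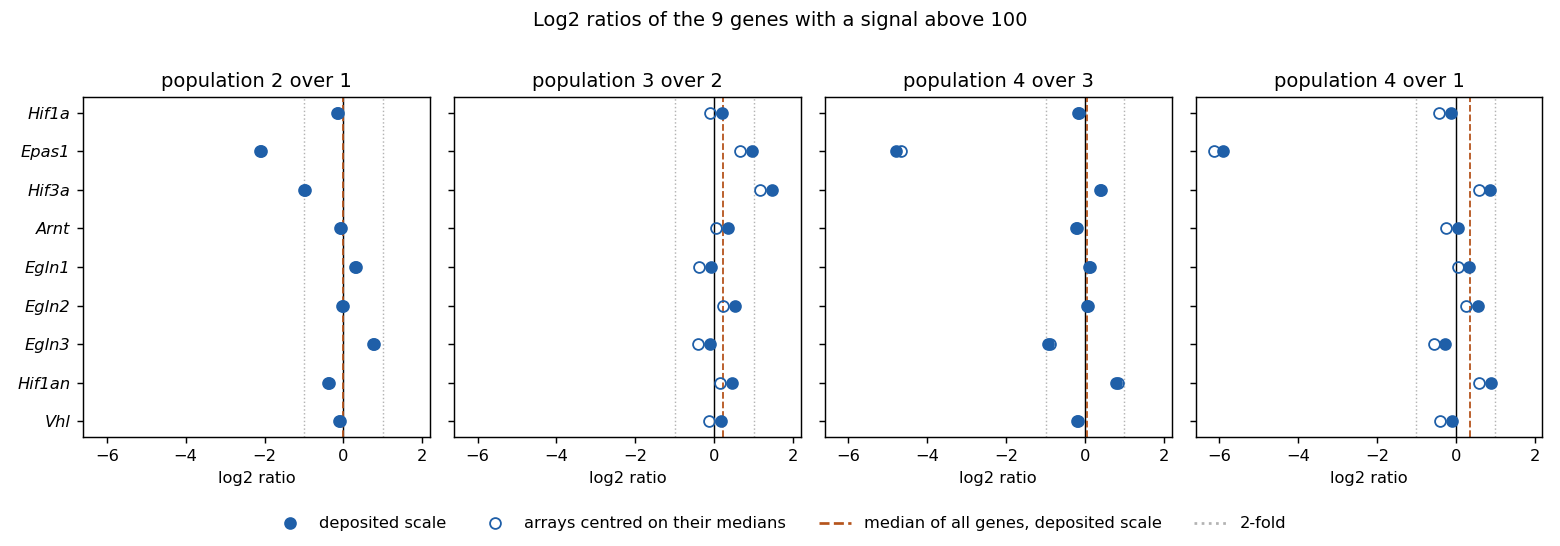
Log2 ratios of the 9 genes with a signal above 100 for the 3 steps between neighbouring populations and for population 4 over 1, from 1 array each. Filled points are on the deposited scale, open points after centring each array on its median, the dashed line is the median of all genes and dotted lines mark 2-fold. Epas1 lies at -5.91 for population 4 over 1, and all other genes between -0.27 and 0.89 on the deposited scale.

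The genes whose profile lay nearest to that of Epas1 over the 4 populations were sought among 6053 others with a signal of at least 400, by the root mean square difference of log2 signals after each profile was centred on its own mean. Gpihbp1, encoding a capillary endothelial protein that binds lipoprotein lipase, was nearest (0.11), with signals of 651, 125, 265 and 9.26. Sh3bp5, an SH3 domain-binding protein gene, followed (0.14) and Hmcn1, encoding the extracellular matrix protein hemicentin, came next (0.15). All 3 had the dip in population 2 and the lowest signal in population 4, which follows from their choice by likeness to Epas1. Since these likenesses use signals not raised to the floor, and those of the 3 genes in population 4 lie far below 100 (9.26, 22.2 and 15.8), their distances and order are not reliable. For Egln3 the nearest were Slc7a3, a cationic amino acid transporter gene (0.06), Polg, the catalytic subunit of the mitochondrial DNA polymerase (0.07), and Manf, which encodes a secreted protein of the endoplasmic reticulum stress response (0.07). Manf had signals of 3262, 5137, 4593 and 2394. A likeness over 4 arrays describes the shape of a profile and shares the scale of those arrays.

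**Figure D3:**
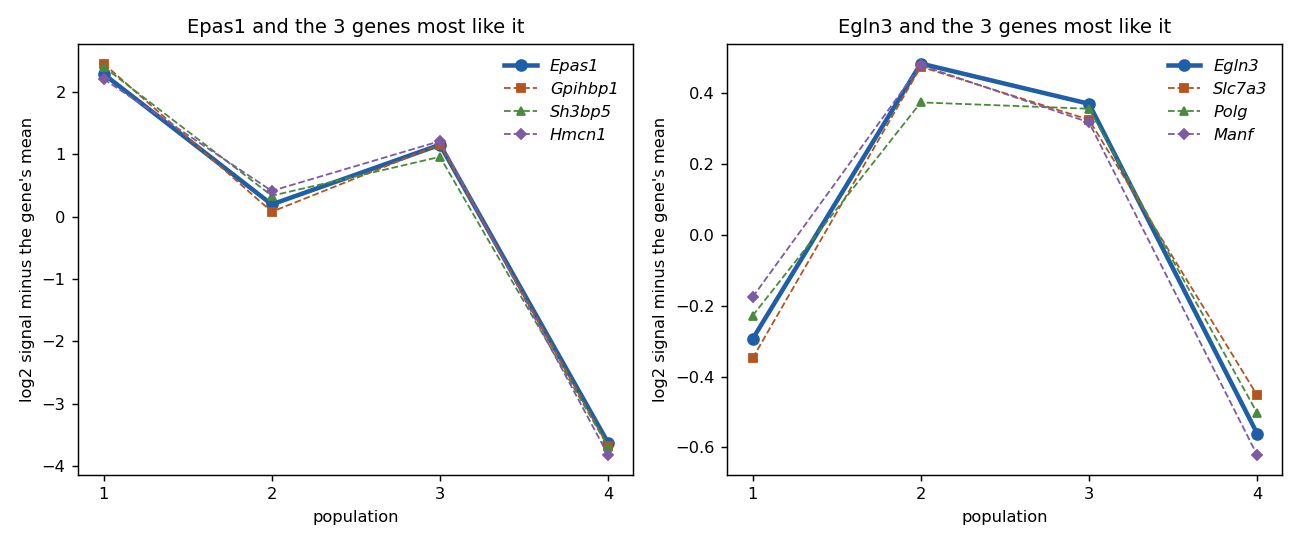
Log2 signal minus the gene's own mean in populations 1 to 4 for Epas1 (left) and Egln3 (right), each with the 3 genes whose profiles lay nearest, from 1 array per population. By the choice of nearest profiles, the Epas1 group has its lowest point in population 4, and the Egln3 group its highest in population 2.

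HIF binds to the letters ACGTG or GCGTG, the core of the hypoxia response element, and Egln1 and Egln3 are known as HIF targets in a feedback loop. RefSeq promoters (GRCm38.p6, from 250 bases before to 50 after the start of the gene) were searched on both strands for these letters, where CACGTG is counted on both. Of the 10 genes, 9 had a promoter in the table, all but Epas1, and 6 of these held a match: Hif1a, Hif3a, Arnt, Egln1, Egln2 and Egln3. Vhl, Hif1an and Arnt2 held none. Counted by gene in the same way, 46.7% of all 27025 genes in the table held a match, as did 43.8% of all 32851 promoters. Of the HIF target genes listed below, 40 of the 49 with a promoter held a match, beside 46.7% of all genes in the table, with no account taken of base composition. The stretches around an ACGTG match in Hif1a and the prolyl hydroxylase genes are shown because they let the feedback genes be compared, with the match in capitals and the gene's own strand read from left to right.
Egln1 (chr8:124949306-124949334, minus strand, match 68 bases before the start): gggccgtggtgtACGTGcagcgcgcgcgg
Egln2 (chr7:27166834-27166862, minus strand, match 48 bases before the start): agcctcctgtcaACGTGcggttcgcgcac
Egln3 (chr12:54204087-54204115, minus strand, match 229 bases before the start): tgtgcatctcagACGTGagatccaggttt
Hif1a (chr12:73907785-73907813, plus strand, match 70 bases before the start): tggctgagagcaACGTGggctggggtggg
All 4 stretches hold the same core because they were chosen for it, and other matches in the promoters of Egln1, Egln2 and Hif1a are not shown. By their brightest probe sets, signals had a range of 2.06-fold for Egln3 and 1.15-fold for Hif1a. A link between these letters and the signals was not tested. A match is a description of the letters, and binding was not measured.

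Of the partners through which VHL marks HIF for degradation, all 8 had a signal above 100, with 1 higher and 1 lower in population 4 than in population 1 (0 and 1 after centring). Each is 12.5% of the list, beside 22.4% of all genes that were higher and 12.9% that were lower. Cul2, the scaffold of the ligase, had signals of 587, 650, 879 and 1362 across the 4 populations, which is 2.32-fold higher in population 4 than in population 1. After centring its log2 ratio was 0.92, below the limit, in place of 1.22. The ubiquitin-conjugating enzyme gene Ube2d1, with 258, 213, 274 and 129, was 2.0-fold lower, at the limit. The median log2 ratio over the list was 0.28, beside 0.36 over all genes.

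Among 16 measured cofactors and regulators of HIF, 14 were above 100. There were 4 higher in population 4 than in population 1 and 0 lower (2 and 0 after centring). The 4 are 28.6% of the 14, beside 22.4% of all genes, and the 2 after centring stand beside 14.4% of all genes, so that the share is near that of all genes. Cited4, of the CITED family that binds the coactivators CREBBP and EP300, had signals of 0.70, 12.9, 62.2 and 1114 and was at least 11.1-fold higher in population 4. Its relative Cited2, which competes with HIF for these coactivators, had 2664, 3664, 4493 and 7217 and was 2.71-fold higher. Both thus stood highest where Epas1 stood lowest. Erythroid markers moved the same way, with 8 of 8 higher in population 4 than in population 1 and summed signals of 250, 342, 4444 and 37835 in populations 1 to 4. The part of erythroid cells in these results was not tested. The coactivator gene Crebbp, with 1549, 1276, 1776 and 1581, and Ep300, with 1181, 1012, 1462 and 1563, both named after their values were seen, showed no difference of 2-fold.

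Of 11 other genes of the bHLH-PAS family, to which the alpha and beta subunits belong, 3 had a signal above 100. The circadian factor gene Clock, with 352, 291, 361 and 116 in populations 1 to 4, was 3.03-fold lower in population 4 than in population 1, and 2 of its 3 other probe sets above 100 went the same way. The aryl hydrocarbon receptor gene Ahr, chosen after its values were seen, shared the dip of Epas1 in population 2, with 363, 136, 435 and 327.

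Genes known as HIF targets were listed in 3 groups, of which 55 of 62 measured genes had a signal above 100. Together 5 were higher and 20 lower in population 4 than in population 1, where 22.4% and 12.9% of all genes were, and their median log2 ratio was -0.23, beside 0.36 over all genes. After centring 3 were higher and 23 lower, where 14.4% and 16% of all genes were. With the mean over probe sets 5 were higher and 12 lower of 48, and the median was 0.016.

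Targets of metabolism and glycolysis had few called genes. Of 19 above 100, 2 were higher, 1 was lower and 16 genes differed by less than 2-fold between populations 4 and 1, with a median of 0.20, which turned to -0.06 after centring (1 higher and 1 lower). The 2 and 1 are 10.5% and 5.26% of the 19, beside 22.4% of all genes that were higher and 12.9% that were lower (14.4% and 16% after centring). Pfkfb4 and Pfkfb3 encode isoenzymes that set the level of an activator of glycolysis, and they moved apart. Pfkfb4 had signals of 70.9, 133, 193 and 2002 and its log2 ratio of population 4 over 1 was at least 4.32, while Pfkfb3 had 249, 185, 154 and 28.6 and was at least 2.49-fold lower. The hexokinase gene Hk1, with 300, 250, 365 and 692, was 2.31-fold higher, and its log2 ratio fell below the limit after centring (0.91). In population 2 against population 1, where Egln3 was higher, this group had a median of 0.37 beside 0.00 over all genes. At least 2-fold higher were 2 genes (10.5%) and lower 0, beside 2.92% and 4.19% of all genes. The 2 higher genes were Hk2, with 1658 in population 2 and 750 in population 1, and Gys1, a glycogen synthase gene, with 449 in population 2 and 176 in population 1. Both were named after their values were seen.

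Targets linked to stress, matrix and feedback held more lower than higher genes. Of 20 above 100, 8 were lower and 1 was higher in population 4 than in population 1, with a median of -0.72 (11 lower and 0 higher after centring). These 8 and 1 are 40% and 5% of the 20, beside 12.9% of all genes that were lower and 22.4% that were higher (16% and 14.4% after centring). The transcriptional repressor gene Bhlhe40 had signals of 695, 383, 583 and 131 across the 4 populations, which is 5.30-fold lower in population 4 than in population 1. Ddit4, encoding an inhibitor of mTOR signalling, had 592, 542, 519 and 143 and was 4.14-fold lower. Higd1a, a mitochondrial protein gene, was the 1 gene that was higher, with 2863, 4899, 4830 and 6505, and its log2 ratio after centring was 0.89, below the limit. Among the 8 lower genes were the collagen-modifying hydroxylase genes P4ha1, P4ha2, Plod1 and Plod2, which were singled out after their values were seen. Plod1 had 386, 204, 272 and 89.1 and P4ha2 had 324, 374, 178 and 118, whereas 1 other probe set of P4ha1 above 100 did not go the same way as its brightest. The summed stromal signal (1535 in population 4, against 3391 in population 1) and the summed endothelial signal (1995 in population 4, against 22111 in population 1) were lower too, with Col1a2 at 843 in population 4, against 1988 in population 1, and Col3a1 at 251 in population 4, against 658 in population 1. Their part in the result was not tested.

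Targets of vessels and blood had the lowest median of the 3 groups. Of 16 genes above 100, 11 were lower and 2 higher in population 4 than in population 1, with a median of -1.58 (11, 2 and -1.81 after centring). These 11 and 2 are 68.8% and 12.5% of the 16, beside 12.9% of all genes that were lower and 22.4% that were higher (16% and 14.4% after centring). Nos3, the endothelial nitric oxide synthase gene, had signals of 1827, 1191, 1072 and 50.04 and was at least 18.3-fold lower in population 4. The chemokine receptor gene Cxcr4, with 1732, 173, 359 and 10.3, was at least 17.3-fold lower and had the dip in population 2 that Epas1 had. Vegfa, the ligand gene that is the classic HIF target in angiogenesis, named after its values were seen, had 538, 746, 729 and 166. In the other direction, Epor, the receptor of erythropoietin, had 81.1, 59.4, 122 and 1092 and was at least 10.9-fold higher, and the transferrin receptor gene Tfrc, with 907, 1961, 1641 and 7770.0, was 8.56-fold higher. The list shares Tek with the endothelial and Epor with the erythroid markers and includes Kdr (Flk1), on which population 1 was gated. The summed endothelial and erythroid signals given above moved with them. Their part in the result was not tested.

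**Figure D4:**
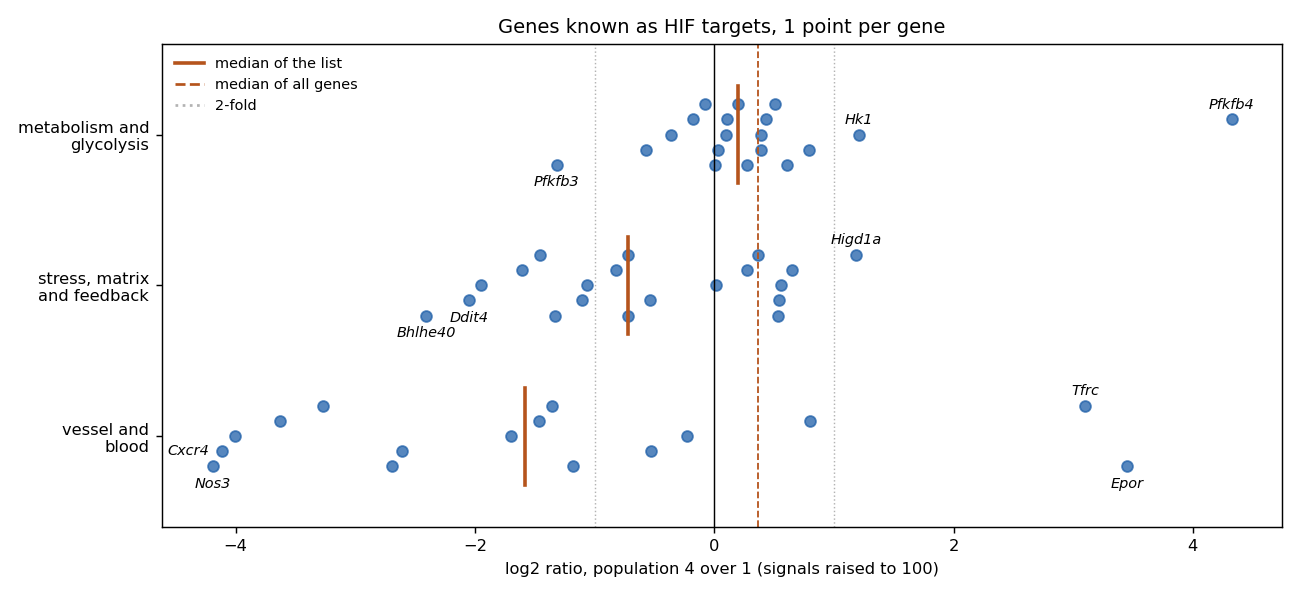
Log2 ratio of population 4 over 1 (signals raised to 100, 1 array each) for the genes of 3 lists of known HIF targets, 1 point per gene, with the median of each list as a bar, the median of all genes (0.36) as a dashed line and 2-fold as dotted lines. The medians are 0.20 for metabolism and glycolysis, -0.72 for stress, matrix and feedback, and -1.58 for vessel and blood, and named genes are labelled.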

How the data were processed

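RNA of 4 sorted populations was labelled and hybridised to Affymetrix Mouse Genome arrays, 1 per population. The authors deposited probe set signals as intensity on a linear scale, and the submitters' processing notes name MAS5 and GCOS 1.3. The scaling between arrays, masking and detection calls are not stated, so that background could not be judged by probe set, and precision is limited by the number of arrays. The signals were used as deposited, with a floor of 100, the study's own minimum. Symbols came from the platform annotation, updated by gene ID through GRCm38.p6 records. A further 932 probe sets with several symbols and 9211 without a symbol were left out.

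Every probe set of the 10 genes was read, and for counts the brightest one of each gene. Of other lists, the 2 genes most higher and the 2 most lower between populations 4 and 1 are named, and the 3 genes most like a member with a signal of at least 400 and a range of at least 2-fold. The members and lists were chosen with earlier results of these data known. Listed genes without a probe set of 1 symbol were not analysed here.

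The alternatives were centring on array medians, folds of 1.5 and 4, floors of 50 and 200, quantile normalisation, leaving out shared probe sets, and averaging the probe sets of a gene. The ratios and calls were tested on simulated data. Python 3.11.15, pandas 2.3.3, numpy 2.4.6, Biopython 1.88 and matplotlib 3.10.9 were used.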

Additional observations from a re-analysis of the deposited data

How the results depend on the processing

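Of 64 counts of members under an alternative, 56 stayed as reported. Those with the lower floor or without shared probe sets could not have changed. The brightest probe set of every measured member exceeded 100 in all populations and was not a shared one, and Arnt2 stayed below both floors. Counts with the mean over probe sets rest on 5 members. With a fold of 1.5, Egln3 was the 1 member higher in population 2 than in population 1 and Epas1 and Hif3a the 2 that were lower, Epas1 and Hif3a the 2 higher in population 3 than in population 2, Hif3a and Hif1an the 2 higher in population 4 than in population 1, and in population 4 against population 3 the 1 higher was Hif1an and the 2 lower were Epas1 and Egln3. With a fold of 4 or a floor of 200, 0 members were higher in population 3 than in population 2. The HIF targets higher in population 4 than in population 1, 5 as reported, numbered 3 after centring or quantile normalisation, 9 with a fold of 1.5 and 3 with a fold of 4. Those lower, 20 as reported, numbered 12 with the mean over probe sets, 13 with a floor of 200 and 9 with a fold of 4. Their median log2 ratio, -0.23 as reported, was 0.0162 with the mean over probe sets. The cause was not tested. Of 200 log2 ratios of members under an alternative, 53 moved by more than the median difference between probe sets of a gene. Those with the lower floor or without shared probe sets could not have moved. Of the called ratios, 0 changed sign. Called among these ratios were only Epas1 for population 4 over 1, 2 over 1 and 4 over 3, and Hif3a for population 3 over 2. Ratios of population 3 over 1, where Epas1 was called lower too, were not among them. Uncalled ratios of Hif1a, Arnt, Egln1 and Vhl changed sign under at least 1 alternative, and those of the other members did not. The log2 ratio of Epas1 for population 4 over 1 lay between -6.14 and -3.63. With the mean over probe sets, Hif3a, Arnt, Hif1an and Vhl gave no ratio because their means stayed below 100, and Epas1, not Hif3a, was the 1 member higher in population 3 than in population 2. No paired analysis was possible because each population has 1 array and the labels give no replicate numbers. Without replicates, differences as small as those of Hif1a, Arnt and Vhl cannot be told from variation between arrays.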
